A study of Mus musculus with 4 samples.

Results

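Interleukins are secreted proteins through which blood and tissue cells signal to each other, and each acts by bringing together receptor chains on the surface of the receiving cell. Most of these chains carry Jak kinases that phosphorylate Stat transcription factors, while the receptors of the IL-1 and IL-17 families work through the adaptors Myd88 and Act1. In the monocyte lineage that forms osteoclasts, IL-1, IL-6 and IL-17 are known to favour bone resorption, and IL-4, IL-10 and IL-18 to restrain it. Transcripts of interleukins and their receptors were examined here in osteoclast progenitors with and without Ptip. A gene was taken when its mouse symbol starts with Il and a digit, apart from Il1b and Il18, and Il6st and Tslp were included, which gave 50 of the 18276 genes in the table. By function, 34 encode receptor or accessory chains, 13 encode ligands, and 3 are neither of these: the secreted IL-18 binding protein Il18bp, the amino acid oxidase Il4i1 and the antisense transcript Il1bos. The other 32 annotated symbols that fit the rule were not analysed here.

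The cells were sorted from fresh bone marrow of B6;129 mice for surface CD115, the receptor encoded by Csf1r, and against Mac-1 and the lymphocyte proteins B220 and CD3. One group came from Ptip flox/flox Mx-1Cre mice (Ptip_KO, here the knockout, 2 libraries) and the other from WT Mx-1Cre mice (WT, here the wild type, 2 libraries), so that both groups carry the Cre driver. The Mx1 promoter responds to interferon in many blood and tissue cells, so this Cre is not restricted to the progenitors. Ptip, whose gene symbol is Paxip1, encodes a protein of the histone methyltransferase complexes built on Kmt2c and Kmt2d.

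Each library held between 67592972 and 77773478 reads, and values are reads scaled to CPM on the effective library size. The design text calls the replicates independent without naming animals, and the tests measure the spread between these libraries. Paxip1 was at 5.10 and 3.73 CPM in the knockout and 106 and 103 CPM in the wild type. Csf1r was at 825 and 782 CPM in the knockout and 677 and 606 CPM in the wild type, whereas the T cell gene Cd3e was at or under 0.190 CPM in each library. WT replicate 2 stood apart by its Xist level, 298 CPM, where each other library had at most 0.0814 CPM.

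Genes were tested where at least 2 libraries reached 1 CPM, with limma on log2(CPM + 1), and a gene is said to have risen or fallen where its Benjamini-Hochberg adjusted p was under 0.05. Of the 50 genes, 35 passed this filter, namely 27 receptor chains, 7 ligands and Il18bp. Among the 27 tested receptor chains, 1 fell, the IL-25 receptor chain Il17rb, and none rose by limma, edgeR or DESeq2, while 11 of the 27 had an unadjusted limma p under 0.05. Of the 7 tested ligands, the IL-1 receptor antagonist Il1rn fell and the chemoattractant Il16 rose. These 3 genes are 8.57% of the 35 tested, and 6.29% of all 12357 tested genes passed the same threshold (3.86% lower and 2.43% higher). Counting instead the genes whose knockout libraries both lay on one side of both wild-type libraries, 12 of the 35 were lower and 9 higher, a share of 60%, where it was 55.1% of all tested genes (27.3% lower and 27.7% higher). The median log2 fold change was −0.079 for the receptor chains and 0.031 for the ligands, beside 0.0032 for all tested genes. At an unadjusted limma p under 0.05 there were 14 of the 35 genes and 23.8% of all.

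DESeq2 and edgeR on the recovered reads gave more calls among these genes. DESeq2 called 9 of the 35, 8 lower and 1 higher, and 15.4% of all genes (9.11% lower, 6.31% higher). With edgeR, 3 were lower and 1 higher, and the share of all genes was 5.34% (3.37% lower, 1.97% higher), or 6.11% with the deposited library sizes. For limma the share of all genes was 6.3% and 5.82% with pseudocounts of 0.25 and 5, 4.49% with no filter and 6.4% with one at 5 CPM. It was 4.73% and 5.41% under 2 other scalings, 7.08% with a robust prior and 13.9% with the replicate number as a block. Without Ptip_KO replicate 1 or 2 it was 3.66% and 3.85%, and without WT replicate 1 or 2 it was 12.1% and 13.1%.

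The sequences just upstream of the annotated starts of the 3 genes that passed are given first, because the differences described below are in the transcripts of these genes. They are the parts of the 250 bases before a RefSeq start (GRCm38.p6) that hold no annotated exon, on the strand of the gene. Il1rn has alternative first exons, for secreted and intracellular forms. Il16 has 3 annotated starts, and gene-level values do not tell which start was used. The other Il1rn window overlaps one of those shown and is left out. Capitals mark a match to TTGCNNAA, a C/EBP motif, on either strand.
Il17rb, chr14:30008897-30009022, minus strand: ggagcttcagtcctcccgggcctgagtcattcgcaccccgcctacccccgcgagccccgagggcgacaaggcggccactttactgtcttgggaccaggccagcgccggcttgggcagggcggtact
Il1rn, chr2:24336610-24336852, plus strand: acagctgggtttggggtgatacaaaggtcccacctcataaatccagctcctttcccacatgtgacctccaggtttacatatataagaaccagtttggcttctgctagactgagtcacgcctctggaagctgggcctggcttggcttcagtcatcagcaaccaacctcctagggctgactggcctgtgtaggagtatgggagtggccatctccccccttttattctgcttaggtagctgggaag
Il1rn, chr2:24345041-24345287, plus strand: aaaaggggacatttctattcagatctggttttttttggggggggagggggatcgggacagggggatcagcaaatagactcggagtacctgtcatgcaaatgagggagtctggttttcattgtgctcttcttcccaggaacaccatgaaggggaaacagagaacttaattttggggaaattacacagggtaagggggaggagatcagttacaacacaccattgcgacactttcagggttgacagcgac
Il16, chr7:83735540-83735789, minus strand: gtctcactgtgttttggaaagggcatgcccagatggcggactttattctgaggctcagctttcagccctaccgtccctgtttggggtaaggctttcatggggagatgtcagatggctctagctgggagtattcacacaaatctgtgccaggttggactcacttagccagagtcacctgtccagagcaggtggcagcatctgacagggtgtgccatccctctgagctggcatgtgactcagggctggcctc
Il16, chr7:83732408-83732648, minus strand: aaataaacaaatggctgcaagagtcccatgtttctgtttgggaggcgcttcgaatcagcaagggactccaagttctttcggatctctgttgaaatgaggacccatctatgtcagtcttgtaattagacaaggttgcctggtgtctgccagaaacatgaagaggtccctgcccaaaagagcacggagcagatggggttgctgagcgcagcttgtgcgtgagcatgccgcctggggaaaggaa
Il16, chr7:83655496-83655745, minus strand: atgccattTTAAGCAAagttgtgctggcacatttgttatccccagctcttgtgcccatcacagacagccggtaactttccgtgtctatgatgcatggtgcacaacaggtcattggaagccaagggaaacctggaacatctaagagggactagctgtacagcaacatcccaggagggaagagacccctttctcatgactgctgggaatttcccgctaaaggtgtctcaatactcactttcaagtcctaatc

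The C/EBP motif was found in 1 of the 7 windows of these 3 genes, the last one shown, and in 9.56% of the 32851 windows of 250 bases upstream of RefSeq starts. TTCNNNGAA, the Stat motif known as GAS, was found in 7.02% of these windows and GAGGAA, a PU.1 core, in 23.3%, on either strand in both cases. No window of the 3 genes held either of them, which says only that these letters are not there.

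Among the ligands, Il16 was the most abundant per kilobase of exons, at a mean of 28.5 CPM per kilobase over the 4 libraries. Il16 encodes a precursor whose released fragment attracts cells that carry CD4. It was at 274 and 250.4 CPM in the knockout and 182 and 191 CPM in the wild type, so that both knockout libraries lay above both wild-type libraries. Its mean rose from 186 ± 6.14 to 262 ± 17.1 CPM (SD, n = 2). The log2 fold change was 0.49 ± 0.0927 (SE) and the adjusted p 0.0419 by limma. The call was lost without Ptip_KO replicate 1 (limma adjusted p = 0.242) and without Ptip_KO replicate 2 (0.124). Il16 (ENSMUSG00000001741.12) lies on chromosome 7 at 83642825 to 83745726 (mm10) and shares exon positions with Stard5 on the opposite strand, and the strand setting of the counting is not given in the sources used here. Stard5 differed the other way, with 11.1 and 9.76 CPM in the knockout and 17.2 and 17.8 CPM in the wild type.

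Il1rn encodes the antagonist that occupies the IL-1 receptor without signalling, and was at 4.70 and 3.61 CPM in the knockout and 10.6 and 12.8 CPM in the wild type. Both knockout libraries were below both wild-type libraries. The mean fell from 11.7 ± 1.60 to 4.16 ± 0.772 CPM (SD, n = 2), 2.82-fold. On the log2 scale the difference was −1.30 ± 0.168 (SE), and the adjusted p was 0.0165 by limma. Leaving out each library in turn gave limma adjusted p between 0.000858 and 0.0277. Il1rn (ENSMUSG00000026981.15) lies on chromosome 2 at 24336853 to 24351494 (mm10), where GENCODE has no overlapping gene. Il1f9, which encodes the IL-1 family ligand IL-36 gamma, lies 143 kb from it, and genes between them were not looked at. Il1f9 was at 10.6 and 4.62 CPM in the knockout and 16.6 and 19.8 CPM in the wild type, again with each knockout value below the wild-type values. It missed the threshold, with a log2 fold change of −1.25 ± 0.334 (SE) and an adjusted p of 0.0920 by limma. DESeq2 called it (0.00671). With a library left out the log2 fold change of Il1f9 lay between −1.77 and −0.73.

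The other tested ligands missed the threshold. Il15, a growth factor of lymphocytes, was at 12.0 and 12.7 CPM in the knockout and 10.9 and 12.6 CPM in the wild type, and Il12a, the p35 subunit of IL-12, at 8.14 and 8.88 against 6.19 and 11.03 CPM. In both genes the groups overlapped. Il27, a subunit of IL-27, was at 1.13 and 1.53 CPM in the knockout and 1.94 and 1.64 CPM in the wild type (limma adjusted p = 0.444). Tslp, an epithelial cytokine related to IL-7, was at 1.02 and 1.33 CPM in the knockout and 0.529 and 0.761 CPM in the wild type (limma adjusted p = 0.275). Il27 was the lower and Tslp the higher in both knockout libraries. Il18bp was at 2.18 and 3.08 CPM in the knockout and 2.37 and 4.79 CPM in the wild type, with overlapping groups.

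**Figure D1:**
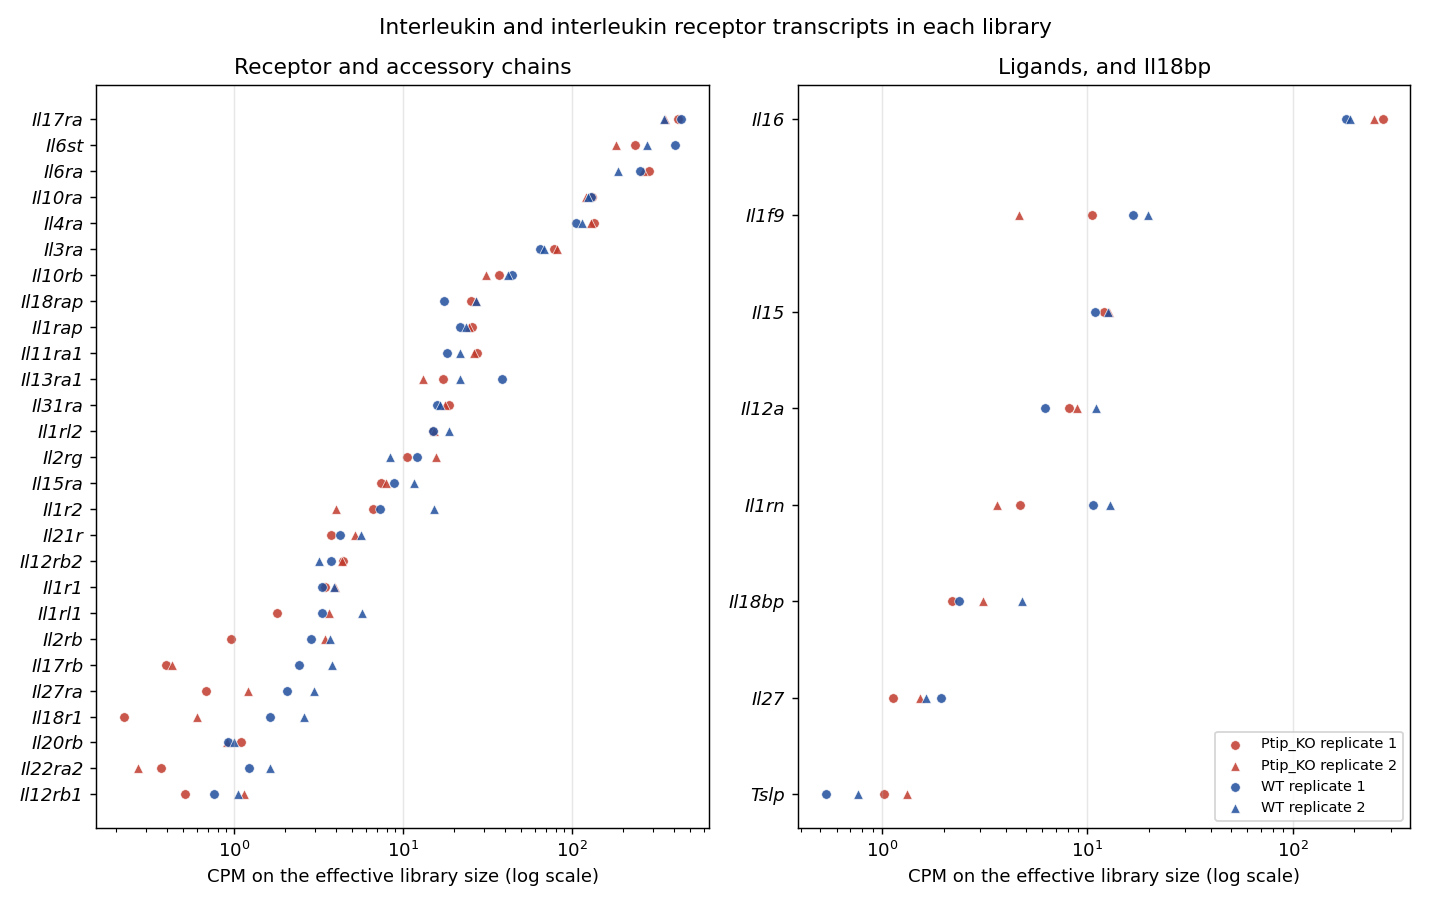
CPM on a log axis for the 27 tested receptor chains (left) and the 7 tested ligands with Il18bp (right), 1 point for each of the 4 libraries. Il17rb, Il18r1 and Il22ra2 have both Ptip_KO points to the left of both WT points, while the points of Il10ra lie together.

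Of the receptor chains, Il17rb had the log2 fold change farthest from 0. Il17rb pairs with Il17ra to bind IL-25, the IL-17 family cytokine of type II immunity. It was at 0.394 and 0.428 CPM in the knockout and 2.41 and 3.78 CPM in the wild type, from 30 reads in each knockout library and 178 and 298 reads in the wild-type ones. Its mean fell from 3.10 ± 0.964 to 0.411 ± 0.0241 CPM (SD, n = 2), 7.53-fold. On the log2(CPM + 1) scale, on which a low gene's change comes out smaller, the fold change was −1.52 ± 0.217 (SE) and the adjusted p 0.0218 by limma. Without each library in turn the limma adjusted p was between 0.000679 and 0.0439, and edgeR gave 0.0244. Il17rb (ENSMUSG00000015966.17) lies on chromosome 14 at 29996135 to 30008896 (mm10) and shares exon positions with Actr8 on the opposite strand. Actr8 was at 39.3 and 36.7 CPM in the knockout and 41.8 and 38.6 CPM in the wild type. In this bulk RNA, fewer cells that carry Il17rb and less Il17rb RNA per cell cannot be told apart.

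Il17ra, the chain common to several IL-17 receptors, was the most abundant of the 50 genes per kilobase of exons, with a mean of 45.3 CPM per kilobase. It was at 425 and 354 CPM in the knockout and 441 and 351 CPM in the wild type, with overlapping groups. Its log2 fold change of −0.019 turned to 0.031 when libraries were scaled to their sums.

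Il18r1, the ligand-binding chain of the IL-18 receptor, and Il22ra2, a secreted decoy receptor for IL-22, were also at low levels. Il18r1 was at 0.223 and 0.599 CPM in the knockout and 1.64 and 2.59 CPM in the wild type. Il22ra2 was at 0.368 and 0.271 CPM in the knockout and 1.22 and 1.64 CPM in the wild type. In each of them the groups did not overlap, and the wild-type mean was 5.14-fold and 4.47-fold that of the knockout. By limma they missed the threshold (adjusted p = 0.0553 and 0.0591), and DESeq2 called both (0.00476 and 0.00343). The edgeR test called Il22ra2 (adjusted p = 0.0449) and not Il18r1 (0.0832). Il27ra, which pairs with Il6st to bind IL-27, was at 0.683 and 1.21 CPM in the knockout and 2.05 and 2.97 CPM in the wild type (limma adjusted p = 0.0918, DESeq2 0.0434).

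Il6st encodes gp130, the signalling chain shared by the receptors of IL-6, IL-11 and IL-27. It was at 236 and 180.4 CPM in the knockout and 407 and 276 CPM in the wild type, with each knockout value below the wild-type values. The log2 fold change was −0.70 ± 0.218 (SE), and limma gave an adjusted p of 0.131. With a library left out the fold change lay between −0.98 and −0.42. DESeq2 called Il6st (0.00431). Il6ra, the chain that binds IL-6, was at 283 and 264 CPM in the knockout and 252 and 187 CPM in the wild type (limma adjusted p = 0.263). Its log2 fold change lay between 0.12 and 0.55 with a library left out. Il11ra1, the IL-11 binding chain, was at 27.4 and 26.4 CPM in the knockout and 18.3 and 21.6 CPM in the wild type (limma adjusted p = 0.1004). Its log2 fold change lay between 0.31 and 0.53 with a library left out. Both of these chains were higher in the knockout libraries, where Il6st was lower. The reads of Il11ra1 are uncertain, since its transcripts match those of Il11ra2 at 99.0% of aligned positions. Il31ra, a receptor chain for IL-31 that lies 9.81 kb from Il6st on chromosome 13, was at 18.7 and 17.8 CPM in the knockout and 15.8 and 16.4 CPM in the wild type (limma adjusted p = 0.385).

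Chains of 1 receptor were also compared within each library, as the ratio of their CPM per kilobase of exons. There were 12 pairs, among them Il1r2 over Il1r1, which is a decoy over a separate signalling receptor. The groups were apart for 9 of the 12. Several pairs share a chain, so they do not count as separate results. Singly, 55.1% of all tested genes were apart, but the share for ratios of other genes was not computed. The ratio of Il6ra to Il6st was 1.54 and 1.88 in the knockout and 0.794 and 0.870 in the wild type. That of Il4ra to Il13ra1, which together form the receptor that IL-4 and IL-13 share, was 4.85 and 6.13 in the knockout and 1.68 and 3.29 in the wild type. In both pairs the knockout ratios were the higher ones. For Il18r1 over Il18rap the ratio was 0.0124 and 0.0313 in the knockout and 0.132 and 0.134 in the wild type. For Il17rb over Il17ra it was 0.00216 and 0.00283 in the knockout and 0.0128 and 0.0252 in the wild type. Here the knockout ratios were the lower ones. The groups overlapped for Il1r1 over Il1rap, the chains of the IL-1 receptor, at 0.241 and 0.286 in the knockout and 0.271 and 0.295 in the wild type. They overlapped too for Il4ra over Il2rg, at 5.06 and 3.28 in the knockout and 3.45 and 5.43 in the wild type, and for Il27ra over Il6st. Of the remaining pairs, Il11ra1 over Il6st was higher in both knockout libraries. Lower in both were Il10rb over Il10ra, Il1r2 over Il1r1, Il1rl2 over Il1rap and Il1rl1 over Il1rap. For each ratio whose groups were apart the two-sided exact permutation p was 0.333, the smallest that 2 against 2 libraries allow, and 0.444 after adjustment over the 12 pairs.

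**Figure D2:**
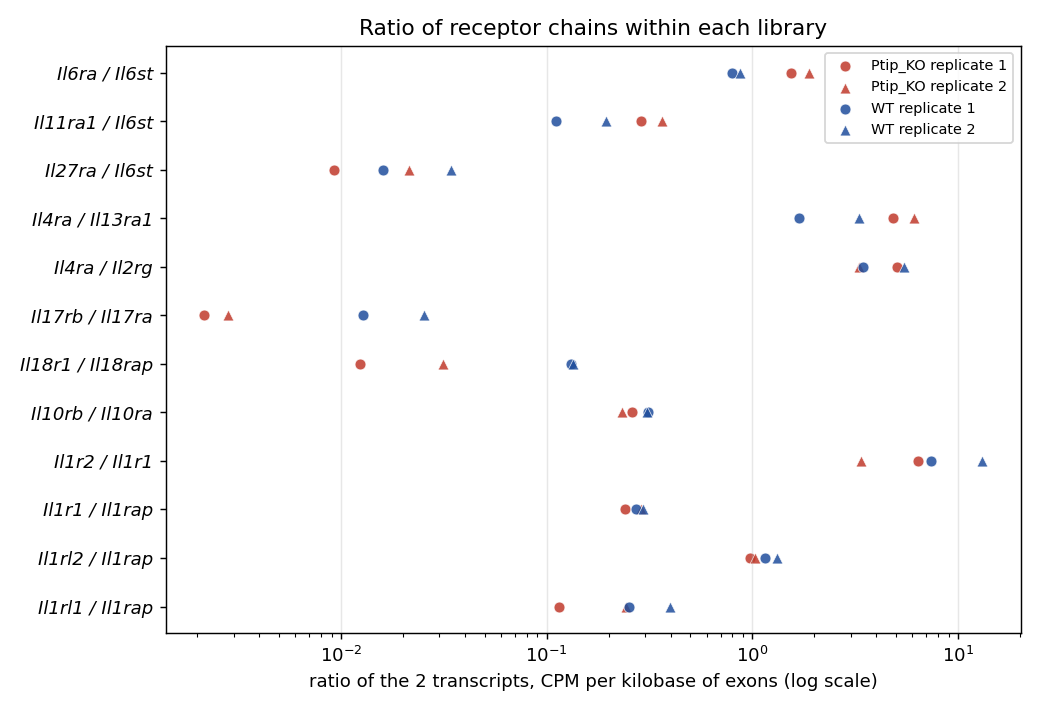
Ratio of the CPM per kilobase of exons of 12 pairs of receptor chains on a log axis, 1 point for each library. The Ptip_KO points of Il18r1 over Il18rap lie to the left of both WT points, and those of Il4ra over Il13ra1 to the right of them.

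Il13ra1, on chromosome X, was at 17.1 and 13.1 CPM in the knockout and 38.6 and 21.6 CPM in the wild type. The wild-type libraries differed more from each other than WT replicate 2 did from Ptip_KO replicate 1. Its log2 fold change was −0.90 ± 0.281 (SE) with an adjusted p of 0.128 by limma and 0.00593 by DESeq2. With a library left out the fold change lay between −1.31 and −0.50. Il4ra was at 135 and 129.6 CPM in the knockout and 105 and 115 CPM in the wild type (limma adjusted p = 0.151). Il2rg, also on chromosome X, is the common gamma chain of the receptors for IL-2, IL-4, IL-7, IL-9, IL-15 and IL-21, and overlapped between groups, at 10.6 and 15.7 against 12.1 and 8.41 CPM. Of the chains that use it, the IL-21 receptor Il21r overlapped too, at 3.73 and 5.17 against 4.21 and 5.60 CPM. Il15ra, the IL-15 binding chain, was lower in both knockout libraries, at 7.43 and 7.88 CPM in the knockout and 8.89 and 11.5 CPM in the wild type (limma adjusted p = 0.229). The signalling chain Il2rb was at 0.959 and 3.45 against 2.85 and 3.69 CPM, with overlapping groups.

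Receptors of the IL-10, IL-12 and common beta groups followed. Il10ra was at 132 and 122 CPM in the knockout and 129.5 and 125 CPM in the wild type, with a log2 fold change of −0.0074 that turned to 0.043 when libraries were scaled to their sums. Il10rb, the chain it shares with other receptors of the IL-10 family, was at 37.1 and 30.8 CPM in the knockout and 44.0 and 41.7 CPM in the wild type (limma adjusted p = 0.165). Il3ra, the IL-3 binding chain, was at 78.2 and 80.8 CPM in the knockout and 64.6 and 68.1 CPM in the wild type (limma adjusted p = 0.142). The knockout libraries were thus the lower for Il10rb and the higher for Il3ra, short of the threshold. Of the IL-12 receptor chains, Il12rb2 was at 4.43 and 4.32 against 3.74 and 3.18 CPM and Il12rb1 at 0.512 and 1.14 against 0.760 and 1.05 CPM. Il20rb, a chain of the receptors for IL-19, IL-20 and IL-24, was at 1.10 and 0.913 against 0.923 and 1.002 CPM.

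A run of 6 IL-1 receptor family genes lies side by side on chromosome 1, from 40074079 to 40551705, in the order Il1r2, Il1r1, Il1rl2, Il1rl1, Il18r1 and Il18rap. Il1rl1, the IL-33 receptor, ends 136 bases before Il18r1 begins, and Il18rap begins 14.5 kb after Il18r1 ends. Along this run the log2 fold changes were −0.90 for Il1r2, 0.035 for Il1r1, −0.14 for Il1rl2, −0.58 for Il1rl1, −1.14 for Il18r1 and 0.25 for Il18rap, and none passed by limma. Il1r2, a decoy that binds IL-1 without signalling, was at 6.67 and 4.01 CPM in the knockout and 7.27 and 15.3 CPM in the wild type. Its knockout libraries were the lower ones, with a limma adjusted p of 0.207. With a library left out the log2 fold change of Il1r2 lay between −1.39 and −0.42. Il1r1, the signalling receptor, was at 3.47 and 3.95 CPM in the knockout and 3.30 and 3.91 CPM in the wild type, so that the groups overlapped. Il1rl2, the IL-36 receptor, was at 15.0 and 15.2 against 15.0 and 18.7 CPM and Il1rl1 at 1.80 and 3.64 against 3.32 and 5.71 CPM, both with overlapping groups. Il18rap, the partner chain of Il18r1, was at 25.3 and 26.9 CPM in the knockout and 17.4 and 27.1 CPM in the wild type. Its log2 fold change turned to −0.054 without WT replicate 1. Il1rap, the accessory chain that Il1r1, Il1rl1 and Il1rl2 share, lies on chromosome 16 and was at 25.7 and 24.6 CPM in the knockout and 21.7 and 23.6 CPM in the wild type (limma adjusted p = 0.443).

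**Figure D3:**
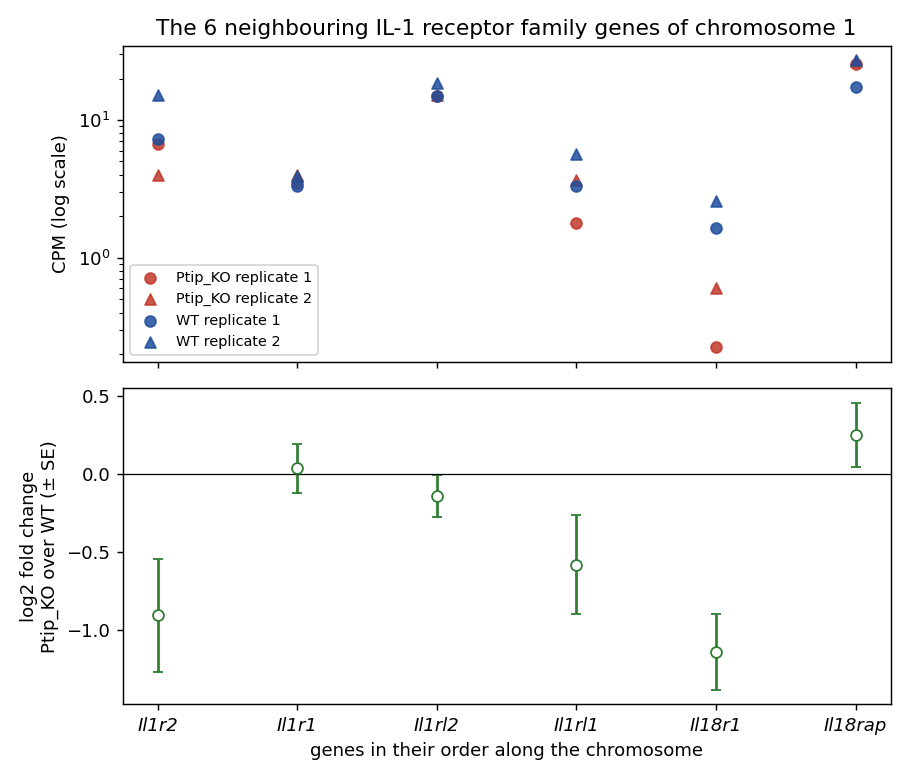
The 6 neighbouring IL-1 receptor family genes in chromosome order, with the CPM of each library on a log axis (top) and the log2 fold change of CPM + 1 with its standard error (bottom). Il18r1, at −1.14, lies between Il1rl1 at −0.58 and Il18rap at 0.25.

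Across the 35 tested genes, the log2 fold changes ran from −1.52 for Il17rb to 0.49 for Il16. The 5th and 95th percentiles of all tested genes were −0.78 and 0.53. Below the 5th percentile lay Il17rb, Il1rn, Il1f9, Il18r1, Il13ra1, Il1r2, Il22ra2 and Il27ra, and none of the 35 lay above the 95th.

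**Figure D4:**
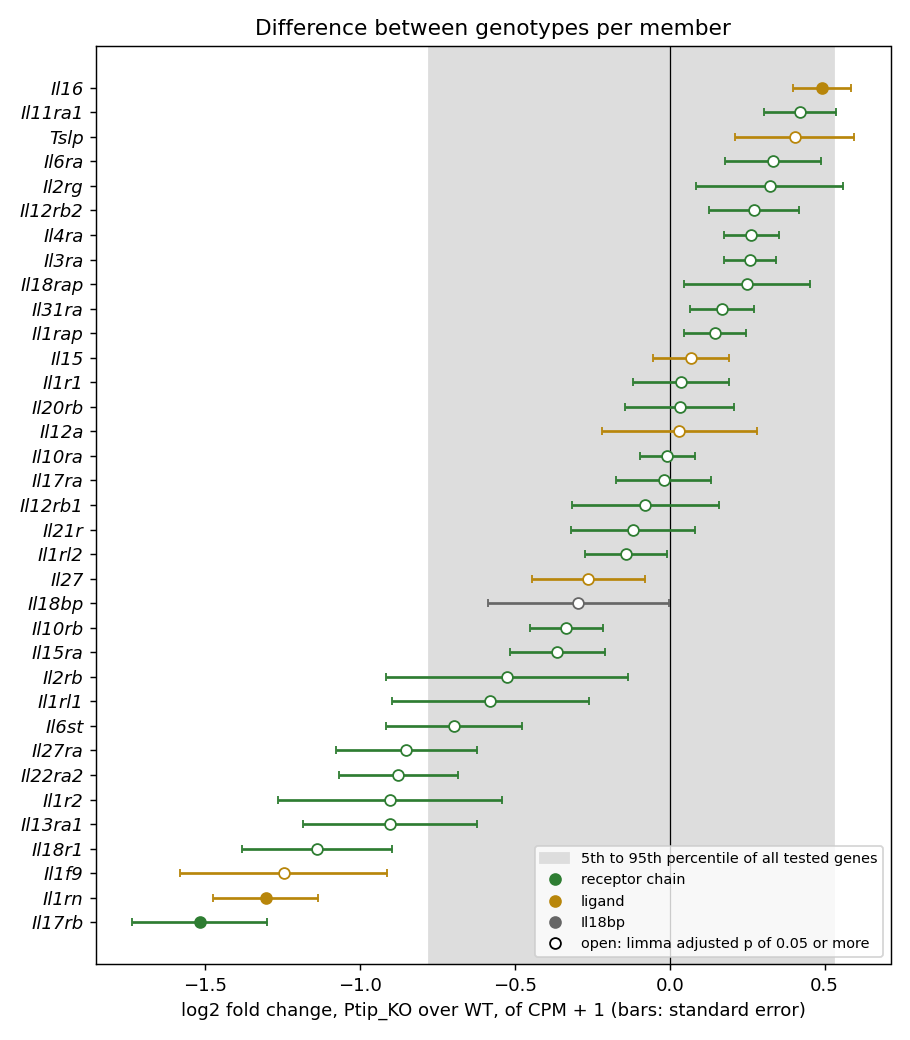
Log2 fold change of CPM + 1, Ptip_KO over WT, with its standard error for the 35 tested genes, where filled points passed by limma and the grey band spans the 5th to 95th percentile of all tested genes. The filled points are Il17rb (−1.52), Il1rn (−1.30) and Il16 (0.49).

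The remaining 15 genes were under the filter, with at most 3.22 CPM in any library. Il7r, the IL-7 receptor of lymphoid progenitors, was at 0.447 and 0.714 CPM in the knockout and 0.936 and 3.22 CPM in the wild type, and Il5ra, the eosinophil IL-5 receptor, at 0.197 and 0.414 against 0.244 and 1.39 CPM. In both the highest value belonged to WT replicate 2. Il7, the ligand of Il7r, was at 0.552 and 1.17 CPM in the knockout and 0.407 and 0.406 CPM in the wild type. The IL-2 binding chain Il2ra was at 0.289 and 0.699 against 0.285 and 0.888 CPM, Il4i1 at 0.552 and 0.557 against 0.678 and 0.837 CPM, and the ligand Il17f at 0.197 and 0.328 against 0.326 and 0.520 CPM. The other 9, among them Il4, Il6, Il11 and Il23a, stayed under 0.5 CPM in each library.

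Markers of other cells differed between the groups along with these genes, and their sums are given as the knockout libraries against the wild-type ones. Among all tested genes, 3.86% were called lower and 2.43% higher by limma, 3.37% and 1.97% by edgeR, and 9.11% and 6.31% by DESeq2. Both knockout libraries lay below both wild-type ones in 27.3% of all tested genes and above them in 27.7%. An unadjusted limma p under 0.05 was found for 23.8% of them. The summed level of 13 macrophage markers was 29.7 and 35.9 against 149 and 137 CPM, and 7 of 9 tested fell. For 12 dendritic cell markers the sums were 247 and 236 against 436 and 343 CPM, with 5 of 10 tested lower and 1 higher. For 11 red cell markers they were 803 and 1097 against 2071 and 4797 CPM, with 7 of 11 tested lower by limma and 3 by edgeR. These lists were thus lower in both knockout libraries. The sums of 22 T, NK and innate lymphoid cell markers were 40.6 and 58.9 against 61.1 and 85.4 CPM, the knockout libraries being the lower. Single values reached 66.4 CPM, so that few genes weigh most in these sums. Of the 4 tested, 0 passed by limma or edgeR, 1 by DESeq2 and 1 at an unadjusted limma p under 0.05. The log2 fold change was below 0 for all 4, with a median of −0.41. For 12 markers of basophils, mast cells and eosinophils the sums were 187 and 346 against 198 and 504 CPM, and for 11 B lineage markers 58.7 and 54.2 against 32.1 and 55.8 CPM, so that the groups overlapped in each. Of these, 1 of 3 tested B lineage markers was called higher by limma, and single B lineage values reached 52.4 CPM, most of a sum. In the other list, 0 of 12 were called by limma, edgeR or DESeq2 or had an unadjusted limma p under 0.05. The log2 fold change was below 0 for 11 of these 12, with a median of −0.43, though the groups overlapped for 11. The sums of 14 neutrophil markers, 11146 and 11768 against 10231 and 15136 CPM, overlapped too and were mostly Mpo, at 7772 and 8481 against 5885 and 8162 CPM. Bulk RNA does not tell whether the Mpo reads came from neutrophils or from the sorted progenitors. Single neutrophil markers were lower, however: 9 of the 14 had both knockout libraries below both wild-type ones and 0 above, with a median log2 fold change of −1.14. Of the 14, 1 was called lower by limma, 4 were by DESeq2, and 8 had an unadjusted limma p under 0.05. The 12 osteoclast progenitor markers, those of the sorted cells, summed to 3137 and 2820 against 3684 and 3234 CPM, lower in both knockout libraries. Single values reached 2059 CPM, so that few genes weigh most in this sum. Among the 10 tested, 3 had both knockout libraries below both wild-type ones and 3, Csf1r among them, above. The log2 fold change was above 0 for 6 and below 0 for 4. Of 10 tested, 2 were called lower and 0 higher by limma and by edgeR, and 3 lower and 1 higher by DESeq2, with a median log2 fold change of 0.076. The sums of 7 stromal markers were 41.2 and 32.3 against 41.7 and 43.4 CPM. Single values there reached 41.3 CPM, most of a sum, and 1 of the 7 was tested. Of the listed markers that have a row, none was at 0 in all 4 libraries, but each gene in the table has at least 10 reads in its highest library, and Mcpt4, Tpsab1, Ahsp, Pdgfra and Bglap were not analysed here. Macrophage, dendritic cell, red cell and single neutrophil markers were lower along with Il17rb, Il1rn, Il18r1 and Il22ra2. The sums of the T, NK and innate lymphoid cell markers were lower too. Most single basophil, mast cell and eosinophil markers had a log2 fold change below 0. The part of any of these markers' cells in the differences was not tested.

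Downstream of the receptors, 2 of 18 tested adaptor genes of the IL-1 and IL-17 pathways rose and 1 fell, where 2.43% of all tested genes rose and 3.86% fell. At an unadjusted limma p under 0.05 there were 7 of the 18, beside 23.8% of all tested genes. Traf3ip2 encodes Act1, the adaptor of IL-17 receptors, and was at 23.1 and 23.1 CPM in the knockout and 10.3 and 10.9 CPM in the wild type. It rose by 1.06 ± 0.104 (SE) on the log2 scale with an adjusted p of 0.00873 by limma. Sigirr, a receptor-like inhibitor of IL-1 and IL-18 signalling, rose too, at 26.8 and 26.8 CPM in the knockout and 15.8 and 18.6 CPM in the wild type (limma adjusted p = 0.0412). Its call was lost by edgeR with TMM factors (adjusted p = 0.0542), by limma with libraries scaled to their sums (0.0635) or by median-of-ratios factors (0.0550), and without Ptip_KO replicate 1 or 2 (limma adjusted p = 0.145 and 0.144). Irak2, a kinase of IL-1 receptor signalling, fell, with 24.9 and 24.4 CPM in the knockout and 49.6 and 42.8 CPM in the wild type (limma adjusted p = 0.0149). Casp1, the protease that matures IL-1 beta and IL-18, was next by p, at 83.4 and 78.4 CPM in the knockout and 66.0 and 59.5 CPM in the wild type (limma adjusted p = 0.0872).

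In the Jak-Stat list, 0 of 29 tested genes passed by limma or edgeR, 4 had an unadjusted limma p under 0.05, and DESeq2 called 1 lower and 2 higher. Of all tested genes, 6.29% passed by limma, 5.34% by edgeR and 15.4% by DESeq2, and 23.8% had an unadjusted limma p under 0.05. The smallest p belonged to Irs2, Jak3, Socs6 and Pias2. Irs2, an adaptor of the IL-4 receptor, was at 59.2 and 65.4 CPM in the knockout and 46.6 and 41.8 CPM in the wild type (limma adjusted p = 0.0547). Jak3, the kinase bound to the common gamma chain, was at 52.0 and 61.1 CPM in the knockout and 31.8 and 41.0 CPM in the wild type (limma adjusted p = 0.0727). Socs6, of a family of signalling inhibitors, was at 51.5 and 44.6 against 75.4 and 61.8 CPM, and the Stat inhibitor Pias2 at 43.8 and 43.0 against 37.9 and 35.4 CPM. The median log2 fold change of the list was 0.049.

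Of 9 tested partner chains and ligands whose symbols do not start with Il, 0 passed by limma, edgeR or DESeq2, and 0 had an unadjusted limma p under 0.05. The shares of all tested genes were 6.29%, 5.34% and 15.4% by these tests, and 23.8% by the unadjusted p. Lifr, the receptor of leukaemia inhibitory factor that pairs with gp130, was at 9.71 and 7.29 CPM in the knockout and 17.9 and 10.3 CPM in the wild type. Csf2rb2, the IL-3 specific beta chain, was at 8.45 and 6.74 against 9.40 and 10.3 CPM, Ebi3, the other subunit of IL-27, at 25.3 and 22.8 against 31.7 and 25.9 CPM, and Crlf2, the TSLP receptor, at 79.5 and 70.9 against 71.8 and 62.3 CPM. Lifr, Csf2rb2 and Ebi3 were lower in both knockout libraries, and Crlf2 overlapped.

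Genes known to be induced by IL-4 and IL-13 in macrophages were taken as a list of their targets. Of its 9 tested genes, 4 fell and none rose by limma or edgeR, and DESeq2 called 5 lower and 1 higher. Of all tested genes, 3.86% were lower and 2.43% higher by limma, and 9.11% lower and 6.31% higher by DESeq2. The median log2 fold change of the list was −1.38. Mgl2, a C-type lectin, was at 6.12 and 4.64 CPM in the knockout and 18.2 and 39.5 CPM in the wild type (log2 fold change −2.14, limma adjusted p = 0.0292). The transcription factor Irf4 was at 4.44 and 4.25 CPM in the knockout and 19.8 and 12.8 CPM in the wild type (limma adjusted p = 0.0160). Mrc1, the mannose receptor, was at 3.66 and 4.80 against 11.4 and 13.7 CPM, and Cdh1, which encodes E-cadherin, at 0.210 and 0.186 against 2.41 and 1.99 CPM (limma adjusted p = 0.0143 and 0.0161). Mrc1 is also one of the 13 macrophage markers, whose sums are given above. The cause of the differences in these target genes was not tested.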

How the data were processed

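TruSeq Stranded mRNA libraries were made from 2 Ptip_KO and 2 WT samples of sorted cells, per the labels. TopHat2 2.0.10, HTSeq 0.6.0, edgeR 3.8.6 and mm10 are named per the submitters' processing notes, and their roles and the strand setting are not given in the sources used here. The authors deposited 1 table of normalized signal, titled as CPM from edgeR on effective library sizes. WT replicate 2 was identified through its description, since its column carries another number than its title.

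Values were divided by what 1 read is worth, and 100% of the 18276 values of each library came out whole within 0.01 read. A gene with no read could hold up to 3, or 0.0380 to 0.0428 CPM depending on the library, counting error alone considered. Testing used limma 3.58.1 (R 4.3.3; trended prior, genotype as the only term) for the 12357 genes with 1 CPM or more in at least 2 libraries, after adding a pseudocount of 1. Recovered reads went into edgeR 4.0.16 (quasi-likelihood, 660 genes called) and DESeq2 1.42.0. Further alternatives were pseudocounts of 0.25 and 5, no filter or 5 CPM, 2 other scalings, a robust prior, a replicate block and each library left out. The fits were tested on simulated data. Symbols were found for 18249 identifiers and positions taken from GENCODE (GRCm38). Near-identical transcripts were sought at 95% identity over at least 200 bases and 50% of the shorter one. By the same search, parts of Il10rb, Il12rb2, Il1rap, Il2rg, Il4i1 and Il4ra match other annotated genes in full. Those genes share exon positions with them, on the same strand for Il10rb and Il2rg and on the opposite strand for the others. Il27ra, Il27 and Il18bp, among others, also share exon positions with a gene on the opposite strand. Reads of such genes could be split, depending on the strand setting.

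Members, lists and alternatives were chosen with earlier results of these data known. Named were all genes of the group past the filter, those under it that reached 0.5 CPM, and, per signalling list, the genes past the threshold or the 4 smallest p. Stard5, Actr8 and Mpo were added after their values were seen.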

Additional observations from a re-analysis of the deposited data

How the results depend on the processing

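Il1rn was called under all 15 alternatives, and Il17rb under the 14 that tested it, since a filter at 5 CPM removes it. Il16 was lost only without Ptip_KO replicate 1 or 2. The 1 receptor chain called lower became 3 with no filter or a robust prior, 0 with a filter at 5 CPM, 2 by edgeR with either library size, 6 by DESeq2, and 1 to 5 with a library left out. Receptor chains called higher numbered 0, and 0 to 2 with a library left out, and the 2 called ligands became 1 to 3. The 3 called signalling genes became 8 by DESeq2 and 2 to 7 with a library left out. All calls, 777, became 1906 by DESeq2 and 452 to 1620 with a library left out. With the replicate number as a block, 7 receptor chains were called lower (Il13ra1, Il17rb, Il18r1, Il1rl1, Il22ra2, Il27ra and Il6st), 9 signalling genes and 1721 genes in all. Deviations of same-numbered libraries correlated across genes with r = 0.332, but with 2 libraries a group this is 1 value. The samples share only the number in their titles, and for replicate 2 the column numbers differ. Directions turned for 12 genes, none of them called by limma with all libraries. Il12a was −0.018 and −0.017 by edgeR and −0.022 by DESeq2. With libraries scaled to their sums Il10ra was 0.043 and Il17ra 0.031. With a library left out the log2 fold change of Il10ra lay between −0.065 and 0.050, and that of Il12a between −0.34 and 0.40. That of Il12rb1 lay between −0.33 and 0.17, and that of Il15 between −0.025 and 0.16. That of Il17ra lay between −0.18 and 0.15, and that of Il18bp between −0.68 and 0.095. That of Il18rap lay between −0.054 and 0.55, and that of Il1r1 between −0.060 and 0.13. That of Il1rl2 lay between −0.29 and 0.0067, and that of Il20rb between −0.036 and 0.10. That of Il21r lay between −0.31 and 0.073, and that of Il2rb between −1.12 and 0.068. The cause was not tested. Genes under 1 CPM rest on few reads, and small differences were not detectable there.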
